A study of Mus musculus with 48 samples.

Results

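The genes described here are 32 genes of red cell formation and heme synthesis, taken by symbol from the 32544 rows of the deposited count table. All 32 symbols were found, and the globins are not among them. By role they comprise 6 genes of the membrane and its skeleton (Slc4a1, Epb42, Epb41, Sptb, Ank1, Add2), 5 that code for blood group proteins (Ermap, Rhag, Rhd, Kel, Xk), 4 transcription factors (Klf1, Gata1, Tal1, Nfe2), 2 receptors (Tfrc, Epor), 6 enzymes of heme synthesis (Alad, Uros, Urod, Cpox, Ppox, Fech), 2 mitochondrial carriers (Slc25a37, Slc25a38) and 7 others of the erythroid lineage (Trim10, Trim58, Hemgn, Bpgm, Tspan33, Tmcc2, Mkrn1).

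The libraries are RNA-seq of tibial metaphysis, the flared end of the shin bone with the marrow it encloses, from male mice aged 19 weeks. Of their 8 inbred strains, CAST/EiJ, WSB/EiJ and PWK/PhJ are wild-derived and C57BL/6J, NOD/ShiLtJ, 129S1/SvImJ, NZO/HlLtJ and A/J are laboratory strains. A cast held the left hindlimb for 3 weeks (immobilized limb), and the right limb of the same mouse was the control limb. All cast limbs were left limbs, so side and cast cannot be told apart. Each strain and limb had 3 libraries. The A/J control libraries of replicates 2 and 5 held 2335 and 50 counts and were left out, so the A/J control group has 1 library. The other 46 libraries held 5253408 to 14744056 counts, with a median of 7593532. Limbs were compared within 22 mice. The number that identifies a mouse within its strain is given after the strain name. Levels are CPM, counts scaled to library size with edgeR's TMM factors, and differences are on the log2 scale.

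Red cells are made in bone marrow from progenitors that depend on erythropoietin. GATA1, TAL1 and KLF1 switch on a shared set of genes, among them those for globins, membrane proteins and heme enzymes. Heme is built in steps divided between mitochondria and cytosol: ALAD, UROS and UROD act in the cytosol, CPOX and PPOX in the mitochondrion, and FECH inserts the iron that TFRC brings into the cell and SLC25A37 carries into the mitochondrion. The heme enzymes and Tfrc are also used outside the erythroid lineage, whereas Slc4a1, Kel and Klf1 are close to restricted to it. In whole tissue, fewer red cell precursors and less RNA per cell cannot be told apart.

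The set was led by Slc4a1, which codes for the anion exchanger of the red cell membrane. It lies at chr11:102348824-102366203 on the minus strand of GRCm38 and had a median of 239 CPM per kilobase of exon over 45 libraries (NZO/HlLtJ control 4, described separately, left out). Slc25a37, the mitochondrial iron importer also called mitoferrin, followed at 87.4 CPM per kilobase, ahead of Alad at 80.9, Hemgn, a nuclear protein of blood precursors, at 78.7, Nfe2 at 69.1 and Tfrc at 69.0. Xk, a membrane protein that partners the Kell antigen, was the lowest at 4.77 CPM per kilobase. Without length scaling, the median of Slc4a1 was 1169 CPM, with a range from 152 to 2505 CPM. Trim58, a ubiquitin ligase of late erythroblasts, had the lowest median, 13 CPM, and ranged from 4.39 to 33.0 CPM. All 32 genes were detected in every one of the 46 libraries.

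The sequences just upstream of the start sites show which of these genes carry the short motifs read by erythroid factors. RefSeq promoter windows of GRCm38.p6, 300 bases each from 250 before to 50 after a start, were held for 27 of the 32 genes in 36 windows. A GATA hexamer (AGATAA, or its relative AGATAG, or TGATAA, or the form TGATAG, searched on both strands) occurred in 18 of the 36 windows, 50%, against 29.8% of all 32851 windows in the table. The KLF-type motif CCNCNCCC, also on both strands, was in 25 member windows, 69.4%, against 49.5% of all windows, and the NFE2-type motif TGAGTCA in 2, 5.6%, against 5.2%. A match is a description of the letters and not a measured binding site. The windows below are those of 3 heme enzymes that differed most between strains and for which a window was held (Uros, with both of its windows, Alad and Cpox) and of Klf1 and Kel, which stood at the bottom of the aberrant NZO/HlLtJ library described next. Capitals mark matches to any of the 3 motifs, in either orientation, and neighbouring or overlapping matches run together. The windows lie at chr7:133709246-133709545 on the minus strand (Uros start 1), chr7:133702451-133702750 on the minus strand (Uros start 2), chr4:62519860-62520159 on the minus strand (Alad), chr16:58669958-58670257 on the plus strand (Cpox), chr8:84901732-84902031 on the plus strand (Klf1) and chr6:41704276-41704575 on the minus strand (Kel).
Uros start 1: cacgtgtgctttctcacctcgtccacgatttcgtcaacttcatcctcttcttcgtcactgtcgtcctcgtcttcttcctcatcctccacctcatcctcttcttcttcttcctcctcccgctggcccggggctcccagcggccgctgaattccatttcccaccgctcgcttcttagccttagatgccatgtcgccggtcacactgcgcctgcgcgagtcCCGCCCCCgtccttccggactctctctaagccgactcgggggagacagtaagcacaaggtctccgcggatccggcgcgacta
Uros start 2: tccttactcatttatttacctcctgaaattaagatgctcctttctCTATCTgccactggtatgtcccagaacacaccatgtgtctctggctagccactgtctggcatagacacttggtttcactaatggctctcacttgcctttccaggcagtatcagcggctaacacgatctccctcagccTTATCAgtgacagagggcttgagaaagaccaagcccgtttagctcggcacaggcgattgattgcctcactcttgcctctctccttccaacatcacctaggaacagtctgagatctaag
Alad: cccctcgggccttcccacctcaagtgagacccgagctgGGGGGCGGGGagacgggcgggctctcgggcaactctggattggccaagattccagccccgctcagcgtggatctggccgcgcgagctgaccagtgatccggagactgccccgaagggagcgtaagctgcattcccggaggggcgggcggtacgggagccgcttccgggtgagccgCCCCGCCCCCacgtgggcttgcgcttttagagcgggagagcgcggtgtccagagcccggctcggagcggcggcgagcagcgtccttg
Cpox: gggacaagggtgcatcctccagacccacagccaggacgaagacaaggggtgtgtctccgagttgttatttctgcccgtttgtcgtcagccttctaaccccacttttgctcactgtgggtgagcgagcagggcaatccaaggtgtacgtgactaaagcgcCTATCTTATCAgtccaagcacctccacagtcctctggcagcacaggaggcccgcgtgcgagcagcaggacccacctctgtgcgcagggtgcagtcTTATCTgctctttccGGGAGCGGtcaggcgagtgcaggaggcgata
Klf1: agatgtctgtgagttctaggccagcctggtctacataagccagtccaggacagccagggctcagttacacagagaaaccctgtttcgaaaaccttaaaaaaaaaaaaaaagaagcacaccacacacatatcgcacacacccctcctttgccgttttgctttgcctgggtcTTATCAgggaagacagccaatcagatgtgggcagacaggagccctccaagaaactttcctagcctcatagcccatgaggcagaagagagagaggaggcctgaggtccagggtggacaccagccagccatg
Kel: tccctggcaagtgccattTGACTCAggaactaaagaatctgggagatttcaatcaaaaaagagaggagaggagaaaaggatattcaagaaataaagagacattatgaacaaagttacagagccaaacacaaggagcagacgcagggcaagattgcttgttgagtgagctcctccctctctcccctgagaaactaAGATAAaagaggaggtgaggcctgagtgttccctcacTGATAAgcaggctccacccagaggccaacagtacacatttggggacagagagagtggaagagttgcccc
Counted from the start of transcription, Cpox held 3 GATA hexamers, beginning at -91, -86 and 5, the first 2 sharing a base, and 1 KLF-type match at 20. Kel held 2 GATA hexamers, at -56 and -19, and the NFE2-type match at -232, and Klf1 held 1 GATA hexamer at -80. The first window of Uros held no GATA hexamer and 1 KLF-type match, and the second held 2 GATA hexamers, at -205 and -68. The Alad window shown, the nearer of its 2 to the GENCODE start of the gene, held no GATA hexamer and 4 KLF-type matches in 2 overlapping pairs, and the window not shown held no GATA hexamer and 2 KLF-type matches.

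The control limb of NZO/HlLtJ mouse 4 stood apart from every other library in these genes. Slc4a1 measured 5.0 CPM there, against 1990 and 1720 CPM in the control limbs of NZO/HlLtJ mice 5 and 6 and 946 CPM in the immobilized limb of the same mouse. It was the lowest of the 22 control libraries for all 32 genes, and it lay below all 45 other libraries for 30 of them, the exceptions being Cpox and Tfrc. The 32 genes made up 0.0745% of its counts, against 0.421% to 1.09% in the other 21 control libraries. Of 14140 genes with a mean of at least 1 CPM in the other 2 NZO/HlLtJ controls, 10.5% lay below all 45 other libraries in this one, and their median level was 98.6% of those controls.

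The shortfall was graded by role. The blood group genes stood at a median of 0.835% of the mean of NZO/HlLtJ controls 5 and 6, the membrane and skeleton genes at 2.21%, the other erythroid genes at 2.4%, the transcription factors at 3.58%, the 2 mitochondrial carriers at 10.8%, the heme enzymes at 13.9% and the 2 receptors at 21.2%. At the low end, Klf1, the transcription factor of late red cell precursors, had 2 counts, 0.195% of the other controls, with an exact Poisson 95% interval of 0.0236% to 0.705% that covers counting error only. Kel, the Kell blood group protein, had 4 counts, or 0.268% (0.0731% to 0.687%). Slc4a1 had 44 counts, or 0.27% (0.196% to 0.362%).

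Tfrc kept the largest share of the 32. Tfrc, which takes up transferrin-bound iron, measured 189 CPM in this library, against 565 and 545 CPM in the other NZO/HlLtJ controls, and so kept 34.0%. Among the heme enzymes, Ppox kept 22.1%, Urod 19.5%, Fech 15.1%, Uros 12.8%, Cpox 10.3% and Alad 8.64%. Epb41, the skeletal protein that joins spectrin to the membrane and that many cells express, kept 9.34%, against 0.538% for Epb42, a red cell membrane protein that binds the anion exchanger. Within the transcription factors the order ran from Klf1 through Gata1 (2.55%) and Tal1 (4.61%) to Nfe2 (5.9%), which megakaryocytes also express.

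Markers of several other cells were low in the same library against the other NZO/HlLtJ controls. Neutrophil markers stood at a median of 6.92% of those controls, megakaryocyte markers at 7.93%, B cell markers at 24.7%, skeletal muscle markers at 26% and proliferation genes at 42.1%. Of the neutrophil markers 10 of 10, and of the megakaryocyte markers 8 of 10, lay below all 45 other libraries. For the B cell, skeletal muscle and proliferation lists this held for 1, 0 and 1 of 10. Globin genes, which the 32 do not include, stood at 0.656%. Macrophage markers stood at 79.2% and bone markers at 429%. The summed CPM of the 10 bone markers was 49100 there and 4850 to 123000 in the other control libraries, so it lay within their range, while the sum of the 10 neutrophil markers, 3250 CPM, lay below theirs of 7130 to 55200 CPM. The part of these shifts in the erythroid values was not tested, and each result that rests on this library is given with and without it.

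**Figure D1:**
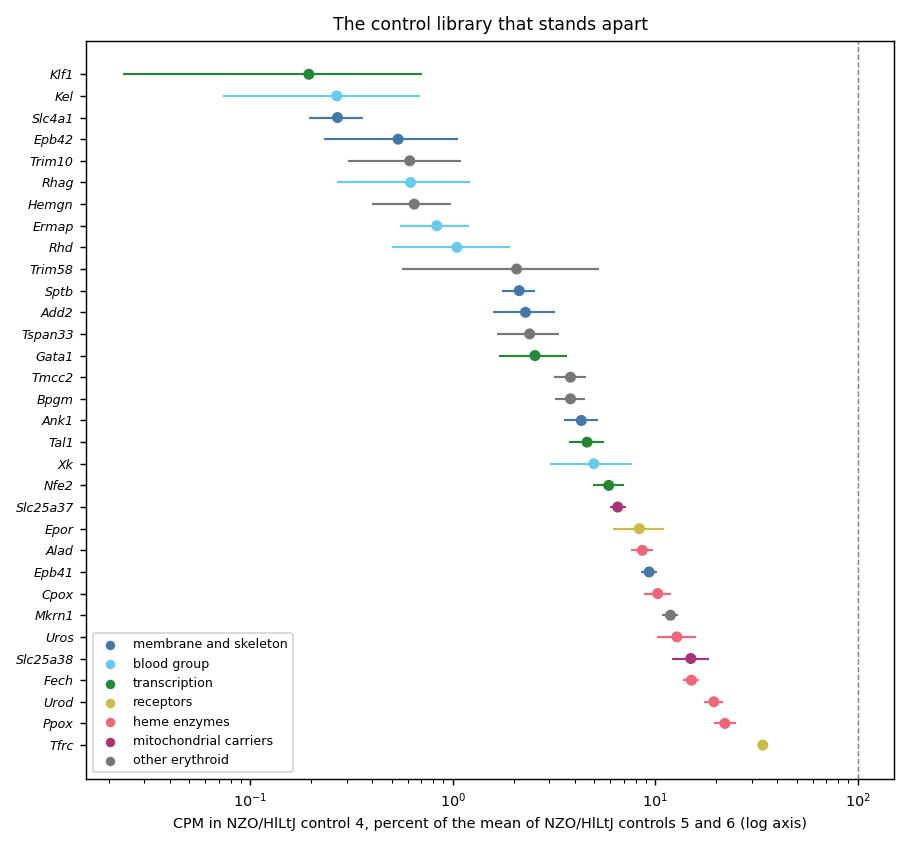
Level of each of the 32 genes in the control limb of NZO/HlLtJ mouse 4 as a percent of the mean of the control limbs of mice 5 and 6 (x axis, log scale), with bars for exact Poisson 95% intervals of its counts and the dashed line at 100%. Klf1, Kel and Slc4a1 lie at 0.195%, 0.268% and 0.27%, the 6 heme enzymes between 8.64% and 22.1%, and Tfrc at 34.0%.

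Across the other 45 libraries the genes rose and fell together, some more closely than others. The standard deviation (SD) of log2 CPM over these libraries had a median of 0.676 over the 32 genes. When each gene was expressed as a log2 ratio to the mean of 9 erythroid markers (Slc4a1, Epb42, Klf1, Gata1, Rhag, Ermap, Hemgn, Trim10 and Trim58, leaving out the gene itself), the median SD was 0.31. These SDs span strains and limbs and are given as a description, and the markers are members themselves. The markers include blood group and membrane genes but no heme enzyme, so the ratio does not compare the roles on equal terms.

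By the median of each role, the ratios were tightest for blood group and membrane genes, but not for every gene of these roles. The blood group genes Xk and Rhd had ratio SDs of 0.476 and 0.457, and the skeletal gene Epb41 had 0.399. Ermap, an erythroblast adhesion protein that carries the Scianna blood group, had the smallest ratio SD, 0.138, and Kel went from 0.739 alone to 0.159 as a ratio. Slc4a1 went from 0.756 to 0.165. By role, the median ratio SD was 0.168 for blood group genes, 0.226 for membrane and skeleton genes, 0.282 for the other erythroid genes, 0.284 for the carriers, 0.323 for the transcription factors, 0.403 for the receptors and 0.418 for the heme enzymes. Alad, which joins the first pyrrole of the pathway, had the largest ratio SD, 0.635. Nfe2, the erythroid and megakaryocyte subunit of the NF-E2 factor, was the only 1 of the 32 with a larger spread as a ratio, 0.547, than alone, 0.503. Tfrc (0.5 alone, 0.481 as a ratio), Xk (0.501 and 0.476) and Ppox (0.438 and 0.416) lost little of theirs.

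**Figure D2:**
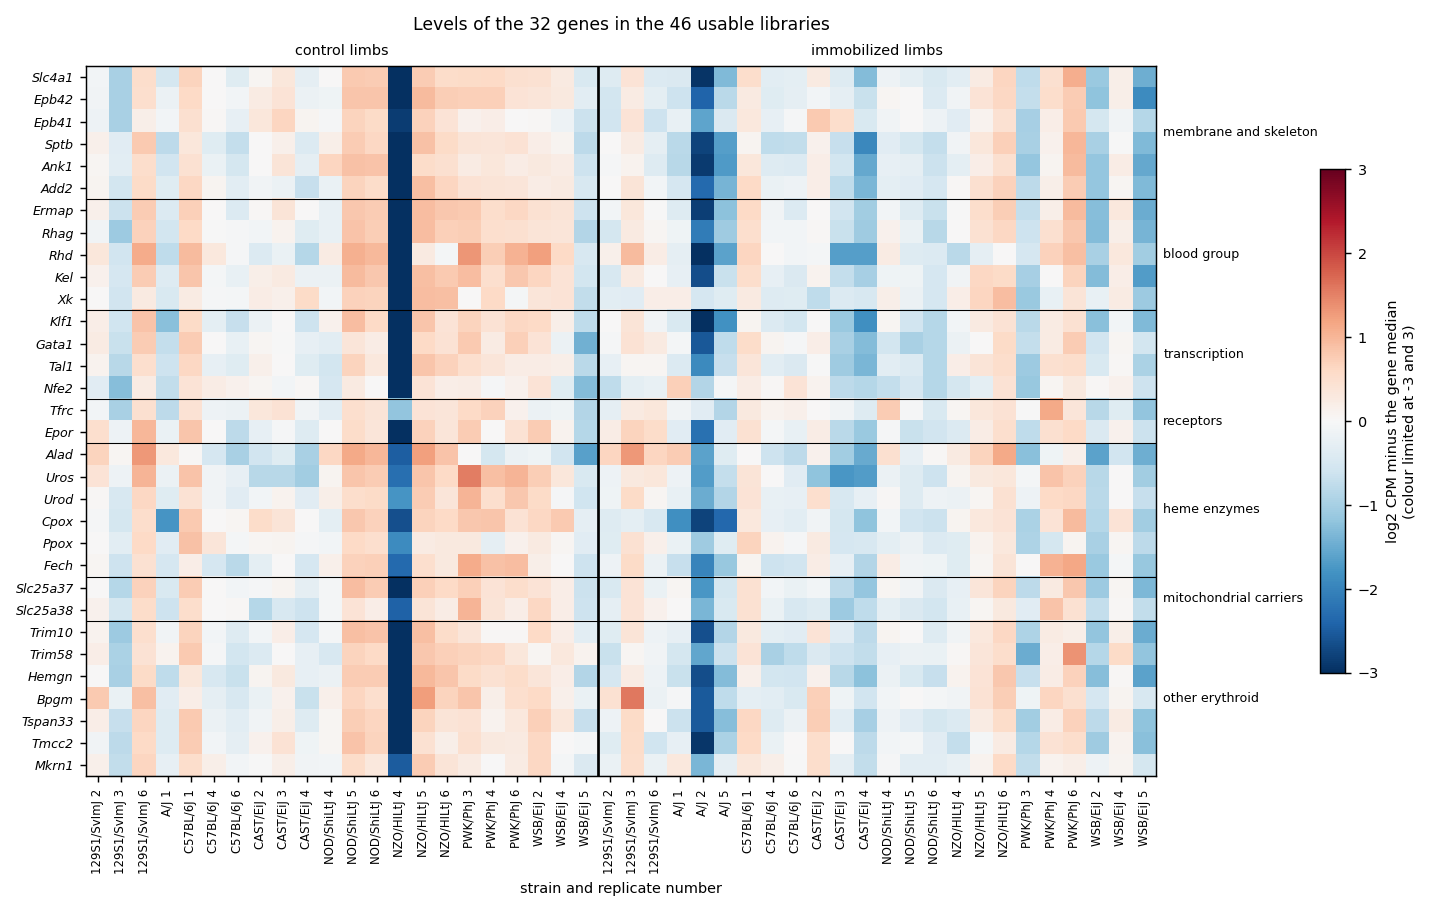
Log2 CPM of each gene minus its median (colour, limited at -3 and 3) in the 46 usable libraries, control limbs left and immobilized limbs right, with genes in rows by role. Columns move as blocks across nearly all genes: NZO/HlLtJ control 4 is lowest of the controls in 32 of 32 and A/J immobilized 2 is lowest of the immobilized libraries in 27 of 32.

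**Figure D3:**
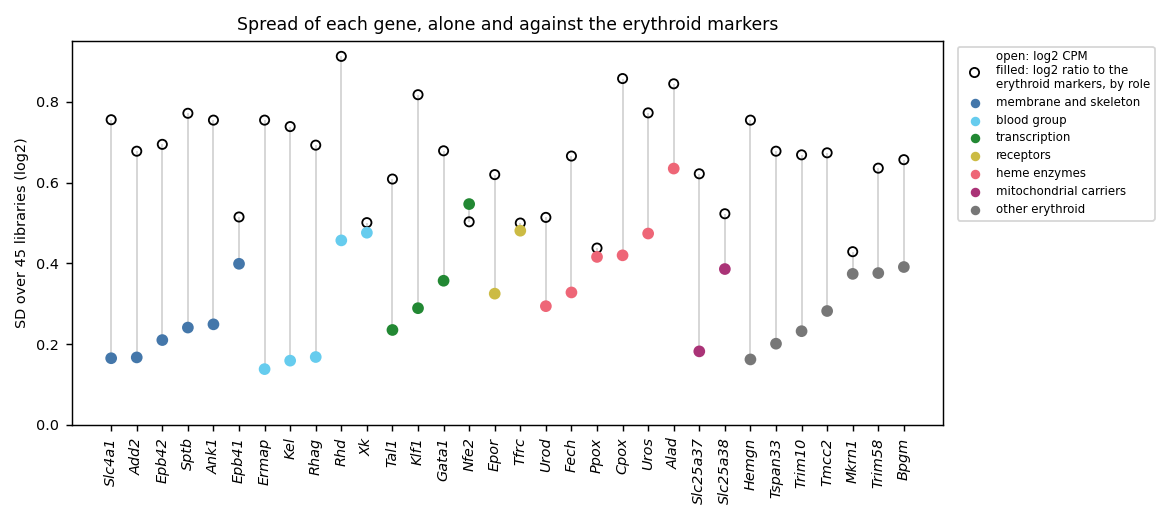
SD over 45 libraries of each gene's log2 CPM (open circles) and of its log2 ratio to the erythroid markers (filled circles, coloured by role; y axis in log2 units). The filled circles of Ermap and Kel lie at 0.138 and 0.159 and those of Nfe2 and Alad at 0.547 and 0.635.

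The first comparison asks whether the cast changed these genes. Within a mouse the 32 genes mostly moved as a block, and the direction differed from mouse to mouse. All 32 were lower in the immobilized limb in 8 of 22 mice and all were higher in 2, 129S1/SvImJ 3 and NZO/HlLtJ 4. The median over the 32 genes was below 0 in 15 mice. Its lowest values were -1.40 in WSB/EiJ 2, -1.36 in PWK/PhJ 3, -1.15 in NOD/ShiLtJ 6 and -1.04 in NOD/ShiLtJ 5. It reached 1.07 in 129S1/SvImJ 3 and 3.68 in NZO/HlLtJ 4, where single genes ran from 1.24 to 7.50. Mice of a strain did not move alike: in PWK/PhJ, mice 4 and 6 had medians of -0.0343 and 0.256 beside the -1.36 of mouse 3, and in WSB/EiJ, mice 4 and 5 had -0.0951 and -0.537. With NZO/HlLtJ 4 left out, the lowest control library was 129S1/SvImJ 3 for 13 of the 32 genes and WSB/EiJ 5 for 11.

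Markers of other cells moved with these differences in part of the mice. In 129S1/SvImJ 3, where the 32 genes were higher in the immobilized limb, neutrophil markers were also higher by a median of 1.40 and muscle markers differed by -3.79. Bone markers were higher there by 0.468. In NOD/ShiLtJ 6, PWK/PhJ 3 and CAST/EiJ 3, where all 32 genes were lower, the medians were -0.94, -1.16 and -0.614 for neutrophil markers and 2.42, 1.2 and 2.73 for bone markers. Muscle markers differed there by -3.01, -1.56 and -3.73. Over the 8 mice with all 32 genes lower, neutrophil medians ran from -1.16 (PWK/PhJ 3) to -0.368 (WSB/EiJ 2). Their bone medians ran from -0.303 (WSB/EiJ 2) to 2.73 (CAST/EiJ 3) and their muscle medians from -3.73 (CAST/EiJ 3) to 0.908 (NZO/HlLtJ 5). WSB/EiJ 2 had an erythroid median of -1.40 with 0.378 for megakaryocyte markers and -0.303 for bone markers. Their part in the erythroid differences was not tested.

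**Figure D4:**
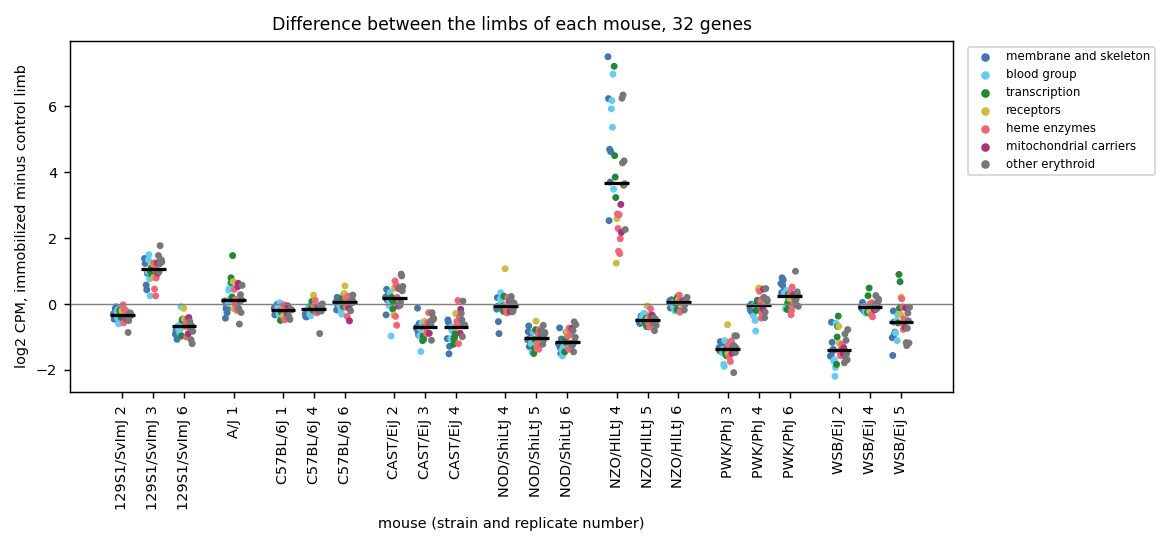
Log2 CPM of the immobilized minus the control limb for each of the 32 genes (points, coloured by role) in each of the 22 mice with both limbs, with the median as a bar. The bar is below 0 in 15 mice, and it stands at 3.68 in NZO/HlLtJ 4 and 1.07 in 129S1/SvImJ 3.

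Over the mean of the 8 strains, edgeR called 0 of the 32 genes, against 7.43% of all 16882 genes tested, and 2 of the 32 had an unadjusted p under 0.05 (DESeq2 called 0 and had 2 under that value). The fitted differences of 29 of the 32 were below 0, with a median of -0.147, while the median over all genes was 0.00945. The 2 with the smallest p were Uros and Cpox. Uros, whose product closes the tetrapyrrole ring, was lower in the immobilized limb in 18 of 22 mice, with differences from -1.60 in PWK/PhJ 3 to 2.29 in NZO/HlLtJ 4, and a fitted mean of -0.38 ± 0.17 (SE; edgeR, adjusted p = 0.178). Cpox, which oxidizes coproporphyrinogen, was also lower in 18 of 22 mice, from -1.74 in PWK/PhJ 3 to 2.71 in NZO/HlLtJ 4, with a mean of -0.42 ± 0.19 (edgeR, adjusted p = 0.202). Slc4a1 had a mean of -0.15 ± 0.35 and was lower in 15 mice.

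With NZO/HlLtJ 4 left out, edgeR called 4 of the 32 genes, all lower in the immobilized limb. The background was 11.3% of 16827 genes called and 5.01% called lower. Unadjusted p was under 0.05 for 15 of the 32, 31 were below 0 and the median was -0.307, against -0.0102 over all genes. The 4 called genes come from 3 roles. Cpox fell by 0.55 ± 0.14 (edgeR, adjusted p = 0.0235) and Uros fell by 0.50 ± 0.12 (edgeR, adjusted p = 0.0146), each lower in 18 of 21 mice. Kel fell by 0.50 ± 0.15 (edgeR, adjusted p = 0.0385; lower in 18 of 21) and Ank1, the ankyrin that ties spectrin to the anion exchanger, fell by 0.47 ± 0.14 (edgeR, adjusted p = 0.0376; lower in 17 of 21). Slc4a1, at -0.36 ± 0.16, did not pass (edgeR, adjusted p = 0.173), and Nfe2, Tfrc and Alad stood at -0.01 ± 0.13, 0.02 ± 0.12 and -0.15 ± 0.16. NZO/HlLtJ 4 was the only mouse whose removal gave any call: leaving out each of the other 21 mice in turn left 0 of 32.

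The markers of other cells were tested in the same fits. With NZO/HlLtJ 4 included, 5 of 10 B cell markers fell (median -0.52 over the 10), 8 of 10 skeletal muscle markers fell (median -2.08) and 6 of 10 bone markers rose (median 0.67), while 0 of 10 neutrophil markers (1 with unadjusted p under 0.05) and 0 of 10 megakaryocyte markers (1 under 0.05) were called by edgeR. Without it, 8 of 10 B cell and 4 of 10 megakaryocyte markers fell. The sum of the bone markers was 4850 to 123000 CPM in control libraries other than NZO/HlLtJ 4 and 8220 to 304000 CPM in immobilized libraries, and no marker of any list was at 0 throughout either group. Their part in the differences of the erythroid genes was not tested.

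The next question was whether strains differed in the response to the cast. The F test among the 8 strains called 0 of 32 genes (edgeR, 0 with unadjusted p under 0.05; DESeq2, 0 called), against 2.5% of all genes. In the fit without NZO/HlLtJ 4 it also called 0 of 32, against 4.23%. Strain by strain, edgeR called 0 of the 256 combinations of gene and strain (2 with unadjusted p under 0.05; DESeq2 0 called and 7 under that value). The background was 0% of all genes in 129S1/SvImJ, 0.00592% each in WSB/EiJ, C57BL/6J and NZO/HlLtJ, 0.0889% in PWK/PhJ, 3.99% in A/J (1 mouse), 8.33% in NOD/ShiLtJ and 13.9% in CAST/EiJ. The median over the 32 genes was -0.716 in NOD/ShiLtJ, where all 32 were below 0, -0.668 in WSB/EiJ, -0.474 in CAST/EiJ, -0.349 in PWK/PhJ, -0.1 in C57BL/6J, 0.0199 in 129S1/SvImJ and 0.126 in A/J. In NZO/HlLtJ it was 0.833, and -0.244 without mouse 4. Leaving out that mouse, edgeR called 3 combinations: Ank1 in NOD/ShiLtJ (-1.19, adjusted p = 0.037, background 10.6%), Uros in NOD/ShiLtJ (-0.96, adjusted p = 0.047) and Xk in CAST/EiJ (-0.87, adjusted p = 0.029, background 16.9%).

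Since most of the spread was common to the 32 genes, the limb comparison was repeated with the mean log2 CPM of the 9 erythroid markers as a covariate, an alternative added after the data had been seen. It is read for the 23 genes that are not in that score. Over the mean of strains it called 4 of the 23, against 10.7% of all genes. Uros differed by -0.32 (edgeR, adjusted p = 0.0049), Cpox by -0.36 (edgeR, adjusted p = 0.0086), Ank1 by -0.24 (edgeR, adjusted p = 0.042) and Nfe2 by 0.20 (edgeR, adjusted p = 0.0486). Leaving out NZO/HlLtJ 4, it again called 4 of the 23, against 11.5% of all genes: Uros (-0.25, adjusted p = 0.0213), Cpox (-0.25, adjusted p = 0.0455), Kel (-0.17, adjusted p = 0.035) and Nfe2 (0.26, adjusted p = 0.0194), all by edgeR. Uros, Cpox and Nfe2 passed in both fits, and Ank1 and Kel in 1 each. Without A/J 1, Nfe2 did not pass (0.03 ± 0.06; edgeR, adjusted p = 0.808), while Uros and Cpox did. Nfe2 also did not pass without WSB/EiJ 4 (edgeR, adjusted p = 0.0504) or without WSB/EiJ 5 (edgeR, adjusted p = 0.088). It passed without WSB/EiJ 2 (edgeR, adjusted p = 0.0489).

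Nfe2 was the only 1 of the 23 whose response at equal score differed among strains. The F test gave an adjusted p of 0.0121 by edgeR (0.00532 without NZO/HlLtJ 4), against 9.84% and 12.7% of all genes called. The result rests on 1 mouse: without A/J 1 the adjusted p was 0.129, and without each of the WSB/EiJ mice it ran from 0.0182 to 0.0251 (edgeR). Nfe2 measured 123 CPM in the control and 340 CPM in the immobilized limb of A/J 1, the only A/J mouse with both limbs. In WSB/EiJ it measured 274, 160 and 84.1 CPM in the control limbs of mice 2, 4 and 5 and 212, 224 and 135 CPM in their immobilized limbs, so the groups overlapped. At equal score the difference was 1.41 ± 0.28 in A/J and 0.73 ± 0.17 in WSB/EiJ, and between -0.21 and 0.07 in the other 6 strains. Markers of other cells that express Nfe2 moved beside it. Neutrophil markers differed by 2.37 in A/J 1 and by -0.368, 0.633 and 1.17 in WSB/EiJ 2, 4 and 5, and megakaryocyte markers by 0.251 in A/J 1 and by 0.378, 0.945 and 1.39 in the WSB/EiJ mice. Their part in the Nfe2 difference was not tested.

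The second comparison asks how strains differ within a limb. The build named in the submitters' processing notes, mm10, is the genome of C57BL/6J, and the effect of this on genes of the wild-derived CAST/EiJ, PWK/PhJ and WSB/EiJ, and of the other strains, was not tested. In control limbs edgeR called 0 of 32 genes among strains (0 with unadjusted p under 0.05), while 40.6% of all genes were called. DESeq2 called 1 and had 2 with unadjusted p under 0.05. Without NZO/HlLtJ 4, edgeR called 5 of 32 (9 with unadjusted p under 0.05), against 55.6% of all genes: Alad (adjusted p = 0.00171), Uros (0.00794), Fech (0.00935), Bpgm (0.0348), the mutase that sets the level of bisphosphoglycerate in red cells, and Cpox (0.0412). In immobilized limbs edgeR called 5 of 32 (10 with unadjusted p under 0.05), against 50.3% of all genes: Uros (adjusted p = 0.00119), Cpox (0.00267), Fech (0.00919), Alad (0.0218) and Tfrc (0.028). The share of the 32 called was thus below that of all genes in each limb. Of the 6 heme enzymes, 4 were called in immobilized limbs and 4 in control limbs without NZO/HlLtJ 4, a share near that of all genes.

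The immobilized count moved with the mice included. Leaving out 1 library at a time gave 4 to 13 called genes, with 13 without A/J 1, 12 without WSB/EiJ 4 and 11 without CAST/EiJ 2 or without PWK/PhJ 3. Uros, Cpox and Fech were called in all 24 of these fits, Alad in 23 and Tfrc in 22. DESeq2 called 14 of the 32, and edgeR with no scaling beyond total counts called 8.

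Uros was low in CAST/EiJ and high in PWK/PhJ. Its control limbs measured 25.7, 25.5 and 22.2 CPM in CAST/EiJ (24.5 ± 1.98, SD, n = 3) and 132, 84.8 and 91.3 CPM in PWK/PhJ (103 ± 25.8, SD, n = 3). Immobilized limbs measured 19.8, 13.6 and 14.3 CPM in CAST/EiJ and 43.4, 82.0 and 72.9 CPM in PWK/PhJ. The 6 CAST/EiJ libraries lay at or below 25.7 CPM and the 6 PWK/PhJ libraries at or above 43.4 CPM. The remaining 33 libraries apart from NZO/HlLtJ control 4 ranged from 14.2 CPM (A/J immobilized 2) to 92.1 CPM (129S1/SvImJ control 6). CAST/EiJ thus overlapped with A/J and WSB/EiJ. The PWK/PhJ libraries lay within that range too, except the control library at 132 CPM. Against the mean of the other 7 strains, CAST/EiJ differed by -1.31 ± 0.46 in control limbs (edgeR, adjusted p = 0.048; background 9.57% called lower) and by -1.41 ± 0.28 in immobilized limbs (edgeR, adjusted p = 0.000899; background 7.49%). The immobilized difference was called in all 24 fits that left out 1 library and the control difference in 6 of 22. Without NZO/HlLtJ 4 the control difference was -1.38 ± 0.30 (edgeR, adjusted p = 0.00247), and PWK/PhJ then differed by 0.96 ± 0.25 (edgeR, adjusted p = 0.0101). In immobilized limbs PWK/PhJ differed by 0.91 ± 0.22 (edgeR, adjusted p = 0.00619; background 10.7% called higher).

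Cpox was low in A/J. It measured 35.6 CPM in the 1 A/J control library and 34.1, 17.7 and 24 CPM in the immobilized libraries of mice 1, 2 and 5. Of the other 42 libraries, NZO/HlLtJ control 4 measured 19.5 CPM and all others were at or above 52.7 CPM (CAST/EiJ immobilized 4). The A/J libraries thus did not overlap with those of any other strain, NZO/HlLtJ control 4 apart. Against the other 7 strains A/J differed by -2.13 ± 0.36 in immobilized limbs (edgeR, adjusted p = 0.000504; background 4.46% called lower), and this was called in all 24 fits without 1 library, with values from -2.38 to -1.92. In control limbs without NZO/HlLtJ 4 the difference was -2.21 ± 0.52 (edgeR, adjusted p = 0.0217; background 0.812% called lower), which rests on 1 A/J library. Cpox was also higher in PWK/PhJ immobilized limbs (0.85 ± 0.28; edgeR, adjusted p = 0.0377), where its 3 libraries spread from 63.6 to 237 CPM and the call was kept in 20 of 24 fits.

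Fech, the ferrochelatase that completes heme, was high in PWK/PhJ. Its control limbs measured 691, 587 and 604 CPM (627 ± 56.0, SD, n = 3), above every control library of the other strains, of which NOD/ShiLtJ 6 was the highest at 522 CPM. Its immobilized limbs measured 318, 656 and 713 CPM, and mouse 3 fell among the other strains. The difference from the other 7 strains was 1.04 ± 0.34 in control limbs (edgeR, adjusted p = 0.0471; background 10.1% called higher; called in 6 of 22 fits without 1 library), 0.97 ± 0.21 without NZO/HlLtJ 4 (edgeR, adjusted p = 0.00298; background 12.7%) and 1.12 ± 0.26 in immobilized limbs (edgeR, adjusted p = 0.00383; called in all 24 fits).

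Alad followed another order of strains. The locus is known for inherited differences in enzyme activity between mouse strains. Control limbs measured 240, 156 and 373 CPM in 129S1/SvImJ, 233, 330 and 303 CPM in NOD/ShiLtJ and, besides the 27.3 CPM of mouse 4, 357 and 274 CPM in NZO/HlLtJ. They measured 154, 106 and 77.0 CPM in C57BL/6J, 102, 117 and 76.6 CPM in CAST/EiJ, 152, 105 and 133 CPM in PWK/PhJ and 138, 101 and 49.1 CPM in WSB/EiJ. With mouse 4 left out, the lowest library of the first 3 strains, 156 CPM, lay just above the highest of the last 4, 154 CPM, and the 1 A/J control at 188 CPM lay with the first. With that mouse left out, the strains that passed against the other 7 were NZO/HlLtJ (1.08 ± 0.29; edgeR, adjusted p = 0.039; background 4.05% called higher), NOD/ShiLtJ (0.93 ± 0.25; edgeR, adjusted p = 0.0194; background 11.4% called higher) and CAST/EiJ (-0.87 ± 0.29; edgeR, adjusted p = 0.0323). In immobilized limbs 129S1/SvImJ passed (1.12 ± 0.34; edgeR, adjusted p = 0.0385; background 6.76% called higher), in 18 of 24 fits without 1 library, with 235, 369 and 235 CPM.

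**Figure D5:**
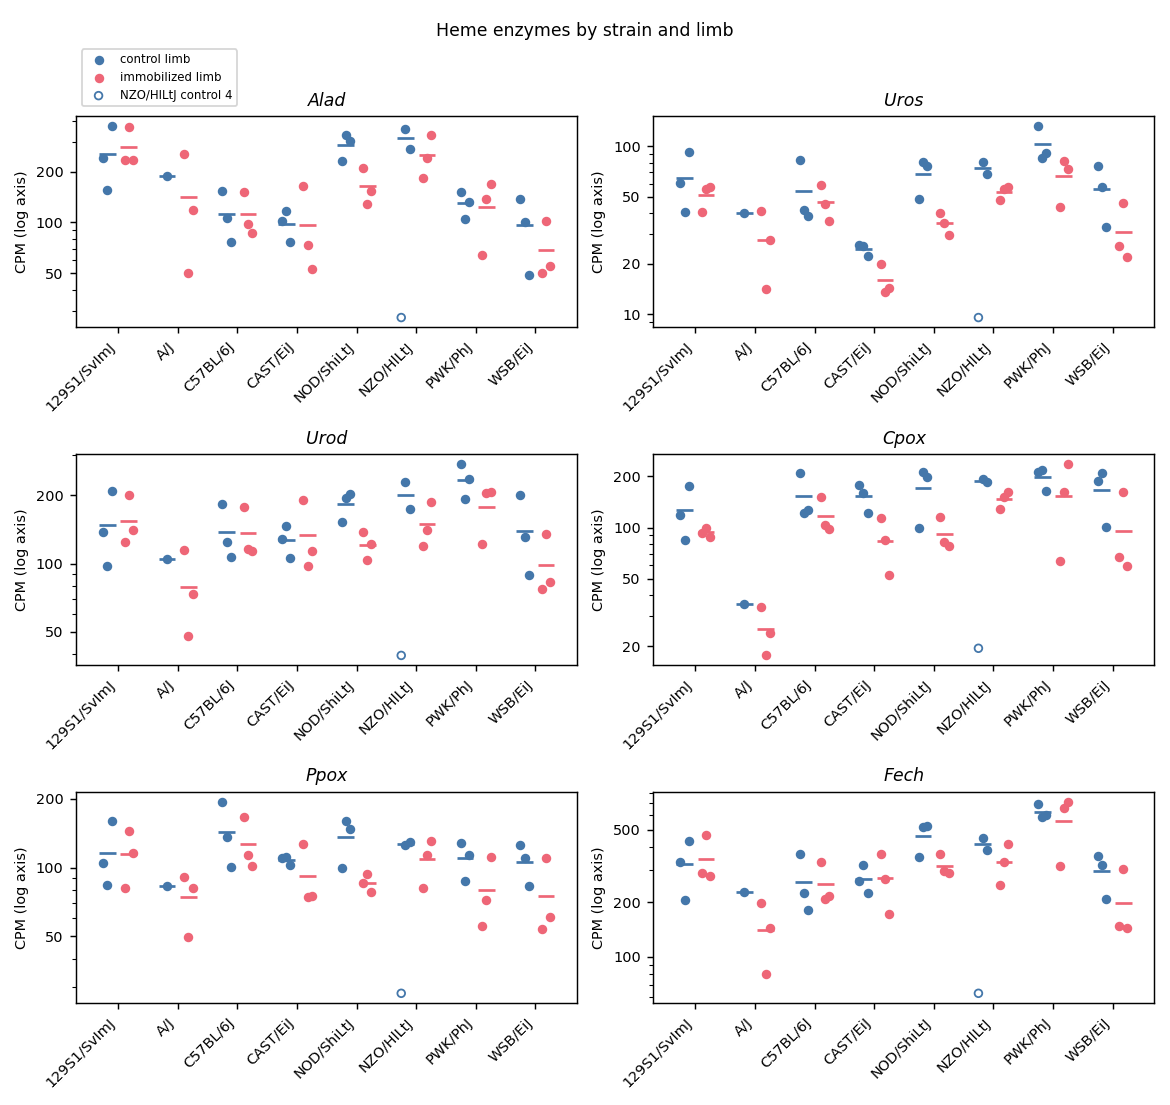
CPM (log axis) of the 6 heme enzymes in each library, by strain and limb (control blue, immobilized red), with group means as bars. NZO/HlLtJ control 4 is the open circle and is left out of its group's mean. Uros is at or below 25.7 CPM in all CAST/EiJ libraries and Cpox at or below 35.6 CPM in all A/J libraries.

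By the F test among strains, Tfrc was the only called gene of the 32 in immobilized limbs outside heme synthesis. It measured 239, 333 and 188 CPM in WSB/EiJ and 422, 945 and 551 CPM in PWK/PhJ. WSB/EiJ differed from the other strains by -0.85 ± 0.25 (edgeR, adjusted p = 0.0376; background 2.84% called lower; called in 21 of 24 fits without 1 library). PWK/PhJ differed by 0.63 ± 0.22 (edgeR, adjusted p = 0.0472), a call kept in 7 of 24 fits.

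Slc4a1, the most abundant of the set, did not differ among strains by the test and spread widely within them. Its control limbs measured 1100, 601 and 1680 CPM in 129S1/SvImJ, 813 CPM in the 1 A/J library, 1850, 1170 and 909 CPM in C57BL/6J and 1210, 1480 and 977 CPM in CAST/EiJ. They measured 1170, 2030 and 1990 CPM in NOD/ShiLtJ, 1730, 1780 and 1630 CPM in PWK/PhJ and 1610, 1410 and 851 CPM in WSB/EiJ. PWK/PhJ was the tightest group, at 1712 ± 78.2 CPM (SD, n = 3), and the ranges of 129S1/SvImJ, C57BL/6J and NOD/ShiLtJ overlapped. In immobilized limbs the group means ran from 496 ± 359 CPM in A/J to 1608 ± 906 CPM in PWK/PhJ (SD, n = 3 each). In control limbs without NZO/HlLtJ 4, A/J was lowest and NZO/HlLtJ highest for the genes with the highest median CPM, not scaled for length, of the blood group, carrier and other erythroid roles. Ermap ran from 152 CPM (A/J, 1 library) to 367 ± 21.4 CPM (NZO/HlLtJ, n = 2), Slc25a37 from 383 to 829 ± 54.8 CPM and Mkrn1, a ring finger protein abundant in red cell precursors, from 242 to 432 ± 79.4 CPM in the same strains.

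Slc25a38, Urod, Ppox and Ank1 did not pass the F test among strains in control limbs (edgeR, adjusted p = 0.455, 0.553, 0.773 and 0.813, and 0.0594, 0.0924, 0.361 and 0.0515 without NZO/HlLtJ 4). Slc25a38, the mitochondrial carrier thought to bring glycine to heme synthesis, had control means from 35.9 ± 4.48 CPM in CAST/EiJ to 83.7 ± 26.1 CPM in PWK/PhJ, and CAST/EiJ differed from the other strains by -0.78 ± 0.24 without NZO/HlLtJ 4 (edgeR, adjusted p = 0.0245; background 12.9% called lower). Urod ran from 126 ± 19.8 CPM in CAST/EiJ, apart from the 105 CPM of the A/J library, to 235 ± 41.9 CPM in PWK/PhJ, which differed by 0.65 ± 0.22 without NZO/HlLtJ 4 (edgeR, adjusted p = 0.0419). Ppox spanned less, from 106 ± 21.5 CPM in WSB/EiJ to 144 ± 46.5 CPM in C57BL/6J, with A/J at 83.4 CPM. Ank1 was highest in NOD/ShiLtJ control limbs, at 338 ± 28.1 CPM, against 190 ± 67.8 CPM in C57BL/6J and 131 CPM in A/J.

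The A/J immobilized limbs were low in several roles. Beside Cpox, edgeR called Fech (-1.15), Urod, the next enzyme after Uros (-0.81), and the skeletal genes Sptb, Ank1 and Add2, which code for spectrin, ankyrin and adducin, and Tspan33, a tetraspanin, as lower than in the other strains, 7 of 32 in all against 4.46% of all genes, with a median of -0.816 over the 32. Library 2 of this group was the lowest of the 24 immobilized libraries for 27 of 32 genes, with 0.185% of its counts in them, and library 5 held 0.383%. Without library 2, and likewise without library 5, Cpox alone of the 7 was called. At an equal erythroid score, the alternative described above, Cpox was again the only 1 of the 7 called lower in A/J. Fech then stood at -0.35 ± 0.13 (edgeR, adjusted p = 0.0668), Ank1 at -0.31 ± 0.16 (0.168), Sptb at -0.30 ± 0.18 (0.262), Urod at -0.19 ± 0.14 (0.359), Add2 at -0.21 ± 0.12 (0.232) and Tspan33 at -0.21 ± 0.13 (0.269). Nfe2 (0.94 ± 0.19), Alad (0.89 ± 0.15) and Slc25a37 (0.49 ± 0.11) were higher in that fit, with edgeR adjusted p of 0.00195, 0.000589 and 0.00413, and the median over the 23 genes outside the score was 0.0852. Neutrophil markers summed to 40500 to 98300 CPM in these 3 libraries, against 12800 to 98300 CPM over all immobilized libraries, and B cell markers to 78.1 to 189 CPM against 78.1 to 532 CPM. Their part in the A/J values was not tested.

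In NZO/HlLtJ immobilized limbs Xk was higher (0.86; edgeR, adjusted p = 0.0294; background 4.76% called higher). The genes closest to restricted to red cell precursors did not pass among strains: by edgeR, Slc4a1, Klf1 and Kel had adjusted p of 0.270, 0.0967 and 0.283 in control limbs without NZO/HlLtJ 4 and of 0.203, 0.118 and 0.355 in immobilized limbs.

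At an equal erythroid score, strain differences became visible in more genes. Of the 23 genes outside the score, edgeR called 12 in control limbs, against 63.3% of all genes, 14 without NZO/HlLtJ 4, against 65.6%, and 13 in immobilized limbs, against 60.1%. Each of these shares is below that of all genes. For Alad, 6 strains then passed in the same direction in both limbs: 129S1/SvImJ (0.88 ± 0.11 in control limbs without NZO/HlLtJ 4 and 0.85 ± 0.12 in immobilized limbs) and A/J (0.91 ± 0.18, from 1 control library, and 0.89 ± 0.15) were above the other 7, and C57BL/6J (-0.58 ± 0.12 and -0.58 ± 0.14), CAST/EiJ (-0.65 ± 0.12 and -0.42 ± 0.14), PWK/PhJ (-0.82 ± 0.13 and -0.75 ± 0.14) and WSB/EiJ (-0.86 ± 0.12 and -0.63 ± 0.15) were below. These 12 differences passed, with edgeR adjusted p from 4.86e-05 to 0.0328. NOD/ShiLtJ passed in control limbs (0.66 ± 0.11) and not in immobilized limbs (0.34 ± 0.13; edgeR, adjusted p = 0.0517). NZO/HlLtJ, which passed in control limbs before, passed in neither limb at equal score (0.47 ± 0.15 in control limbs without mouse 4; edgeR, adjusted p = 0.106, and 0.30 ± 0.14 in immobilized limbs; edgeR, adjusted p = 0.24). In these fits, the share of all genes called against the other 7 strains in control limbs without NZO/HlLtJ 4 was 42.2% in CAST/EiJ, 25.8% in C57BL/6J, 22.4% in PWK/PhJ, 21.8% in NOD/ShiLtJ, 11.8% in WSB/EiJ, 9.47% in 129S1/SvImJ, 3.28% in NZO/HlLtJ and 2.44% in A/J. In immobilized limbs the shares, in that order, were 20.5%, 8.24%, 22.8%, 26.6%, 13.6%, 16.4%, 5.98% and 22.6%.

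For the other heme enzymes, part of the calls given above were kept at equal score. Uros was -1.14 ± 0.11 in control and -1.23 ± 0.12 in immobilized limbs of CAST/EiJ (edgeR, adjusted p = 7.55e-07 and 1.57e-07) and 0.58 ± 0.10 and 0.59 ± 0.10 in PWK/PhJ. Cpox was -1.55 ± 0.23 and -1.23 ± 0.19 in A/J (edgeR, adjusted p = 0.00108 and 0.000258), the first from 1 library whose spread is taken from the other strains. In PWK/PhJ immobilized limbs Cpox lost its call (0.34 ± 0.14; edgeR, adjusted p = 0.0962), as Fech and Urod did in those of A/J. Fech was 0.66 ± 0.08 and 0.72 ± 0.10 in PWK/PhJ (edgeR, adjusted p = 1.22e-05 and 3.82e-05) and -0.42 ± 0.08 and -0.36 ± 0.11 in C57BL/6J. Ppox, the oxidase before ferrochelatase, was -0.38 ± 0.10 and -0.59 ± 0.13 in PWK/PhJ (edgeR, adjusted p = 0.0126 and 0.00225). PWK/PhJ was thus above the other strains in Uros and Fech and below them in Alad and Ppox.

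Outside heme synthesis, Rhd, which carries the Rh antigen, had the widest strain differences at equal score among the blood group genes. It measured 121 and 96.2 CPM in the control limbs of NZO/HlLtJ 5 and 6, 75.5, 87.1 and 55.7 CPM in those of CAST/EiJ and 252, 166 and 205 CPM in those of PWK/PhJ. NZO/HlLtJ differed by -0.90 ± 0.14 in control limbs without mouse 4 and by -0.84 ± 0.15 in immobilized limbs (edgeR, adjusted p = 0.00118 and 0.00169), and CAST/EiJ by -0.57 ± 0.11 and -0.53 ± 0.14 (edgeR, adjusted p = 0.000671 and 0.0122). 129S1/SvImJ was higher by 0.36 ± 0.10 and 0.50 ± 0.13 (edgeR, adjusted p = 0.0374 and 0.0136). Epb41 was higher in CAST/EiJ by 0.44 ± 0.08 and 0.71 ± 0.15 (edgeR, adjusted p = 0.000558 and 0.002). Tfrc was higher in CAST/EiJ control limbs (0.43 ± 0.11; edgeR, adjusted p = 0.00429) and lower in WSB/EiJ immobilized limbs (-0.72 ± 0.22; edgeR, adjusted p = 0.035).

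Other genes of the same pathways were read for the limb in the same fits. Of 19 heme and iron genes tested, 0 were called over the mean of strains (edgeR, 1 with unadjusted p under 0.05), of 16 membrane genes 0 (1 under 0.05), of 16 transcription genes 0 (1 under 0.05) and of 18 late-stage genes 1, Cat, which codes for catalase (-0.27; edgeR, adjusted p = 0.036). The share of all genes called was 7.43% in that fit. Without NZO/HlLtJ 4 it was 11.3%, with 5.01% called lower. The counts of the lists without that mouse were 0, 2, 2 and 2, all lower in the immobilized limb. They included Tmod1, which caps actin in the membrane skeleton (-0.74; adjusted p = 0.00805), Sox6 (-0.49; adjusted p = 0.00887) and Foxo3 (-0.24; adjusted p = 0.0368), transcription factors of late precursors, Cat (-0.33; adjusted p = 0.00462) and Pklr, the pyruvate kinase of red cells and liver (-0.66; adjusted p = 0.013), all by edgeR. Markers of muscle, B cells and bone also differed between limbs, as given above, and their part in these differences was not tested. Alas2, the erythroid enzyme of the first step of heme synthesis, stood at 0.00 ± 0.32 with NZO/HlLtJ 4 and -0.20 ± 0.18 without it.

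Among strains, the control limbs gave calls in 5 of 19 heme and iron genes, 1 of 16 membrane genes, 1 of 16 transcription genes and 0 of 18 late-stage genes (edgeR; 3 of the 18 with unadjusted p under 0.05). Without NZO/HlLtJ 4 the counts were 8, 6, 6 and 7, and in immobilized limbs 5, 4, 9 and 7. The shares of all genes called were 40.6%, 55.6% and 50.3%, and each list's share lay below them in these fits, except for the 9 of 16 transcription genes in immobilized limbs. In control limbs the 4 genes with the smallest adjusted p of each list, named by rule, were Ftl1, Clpx, Snx3 and Steap3 for heme and iron, Tmod1, Piezo1, Tspo2 and Aqp1 for the membrane, Jak2, Gata2, Myb and Kit for transcription, and Hebp1, Car2, Car1 and Alox15 for the late stage. Steap3, a reductase of endosomal iron, had control means from 41.8 CPM in C57BL/6J to 88.2 CPM in NOD/ShiLtJ (edgeR, adjusted p = 0.0255, and 0.000364 in immobilized limbs), and Tmod1 from 27.1 CPM in CAST/EiJ to 123 CPM in NOD/ShiLtJ (edgeR, adjusted p = 0.029). Alas2 did not pass in control limbs (edgeR, adjusted p = 0.979, and 0.2 without NZO/HlLtJ 4) or in immobilized limbs (edgeR, adjusted p = 0.246). Car1 and Car2, carbonic anhydrases found in red cells, passed without NZO/HlLtJ 4 (edgeR, adjusted p = 0.000144 and 0.00106). Car1 had group means from 24.2 CPM in CAST/EiJ to 515 CPM in NZO/HlLtJ (without mouse 4). Car2 had group means from 130 CPM in CAST/EiJ to 1142 CPM in PWK/PhJ. The part of other cells in these values was not tested. Tspo2, an erythroid relative of the mitochondrial cholesterol-binding protein, ranged from 9.32 CPM in NOD/ShiLtJ to 53.3 CPM in PWK/PhJ (edgeR, adjusted p = 0.0904 with all libraries and 0.000371 without NZO/HlLtJ 4). Ftl1, the ferritin light chain, had group means from 8.07 CPM in CAST/EiJ to 1924 CPM in 129S1/SvImJ, but it has near-identical copies in the genome among which reads may be divided, so its values are uncertain.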

How the data were processed

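Gene counts, as deposited by the authors, are whole numbers of reads without normalization, and each library has its own column. Per the submitters' processing notes, the tools were featureCounts and DESeq2 and the build mm10, with no versions; the aligner, annotation and strand setting were not given in the sources used here. Libraries were stranded mRNA preparations, per the labels' protocols. The 32 genes, the other lists and the rule for named genes were chosen with earlier results of these data known.

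All genes passing filterByExpr were tested by the robust quasi-likelihood F test of edgeR 4.0.16 after TMM scaling (R 4.3.3), with Benjamini-Hochberg adjustment and a threshold of 0.05. For the limb, mouse was the block and each strain had its own limb coefficient, over 22 mice; strain models used 22 control or 24 immobilized libraries, each strain set against the mean of the other 7. Adjusted p-values are edgeR's unless DESeq2 1.42.0 is named. The design named all 48 libraries; the A/J control libraries of 2335 and 50 counts were left out as near-empty (under 10000 counts). The A/J limb effect rests on 1 pair and is assumed to vary as the others do.

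Pairing comes from the animal: each mouse gave both limbs. Deviations from group means correlated between a mouse's limbs with a median r of 0.122 over 21 mice (-0.313 to 0.638; 11 above 0.1). By rule, values were given for members called in the limb effect, for the 10 members with the smallest adjusted p among strains in control limbs and for the most abundant of each role; pathway genes were named where called for the limb or among the 4 of each list with the smallest adjusted p among strains in control limbs. Other members, and Sox6, Foxo3, Pklr and Alas2, were named after their values were seen. On simulated counts, 85.4% of limb changes of 1 log2 unit and 96.9% of 2 were called (16085 genes), and of changes in 1 strain's control limbs 26.6% and 79.4% (15838 genes). Coordinates are from GENCODE M21 on GRCm38. In 27 rows the symbol had become a date. Of 72 pathway genes, 69 were in the table, and 1 called gene is not reported here. Replicates are separate mice, per the labels.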

Additional observations from a re-analysis of the deposited data

Results flagged for a closer look

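Nfe2 was the only 1 of the 32 genes whose response to the cast differed between strains by a test of the difference itself, and it did so in the fit at equal erythroid score alone. The adjusted p of that F test was 0.0121 by edgeR, and 0.00532 without NZO/HlLtJ replicate 4. Without A/J replicate 1, the only A/J mouse with both limbs, it was 0.129, so the result rests on that mouse. Without NZO/HlLtJ replicate 4 the fitted difference at equal score was 1.34 in A/J, a single mouse whose spread is taken from the other strains, and 0.88 ± 0.16 in WSB/EiJ (edgeR, adjusted p = 0.0123), and it lay between -0.12 and 0.09 in the other strains. With NZO/HlLtJ replicate 4 included, the WSB/EiJ difference passed (edgeR, adjusted p = 0.0468). From that fit the call was lost without WSB/EiJ 2, 4 or 5 (edgeR, adjusted p = 0.0921, 0.0842 and 0.581). In CPM, without the score, Nfe2 was higher in the immobilized limb in 2 of the 3 WSB/EiJ mice, and the fitted WSB/EiJ difference was 0.27 ± 0.49 (edgeR, unadjusted p = 0.597). Neutrophil markers differed by 2.37 in A/J 1 and by -0.368, 0.633 and 1.17 in WSB/EiJ 2, 4 and 5, and megakaryocyte markers by 0.251 in A/J 1 and by 0.378, 0.945 and 1.39 in the WSB/EiJ mice. Their part in the Nfe2 difference was not tested.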

How the results depend on the processing

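Depth was 5253408 counts or more in every library used. With these numbers of mice, 26.6% of simulated strain changes of 1 log2 unit in control limbs were called, and 79.4% of 2 log2 units. The simulation held no mouse effect and no aberrant library, so these rates do not describe the 32 genes. The fit without the replicate block (mice not paired) used all 46 libraries. It thus also took in the immobilized libraries of A/J 2 and 5, which have no usable control library. In that fit edgeR called 0 of 32 genes for the limb, with a median of -0.310 instead of -0.147, and no other call changed. The parts of the pairing and of the added libraries were not tested apart. Nfe2 then turned to -0.0395, and over fits without 1 mouse it ran from -0.0608 (without A/J 1) to 0.241 (without NZO/HlLtJ 5), also turning without NZO/HlLtJ 4 (-0.01). Slc4a1 ran from -0.355 (without NZO/HlLtJ 4) to 0.142 (without NZO/HlLtJ 5), also turning positive without NZO/HlLtJ 6 (0.11). The cause of these turns was not tested.

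With the score as covariate, read for the 23 genes outside it, the counts of called genes were 4 for the limb over the mean of strains, 5 over the strains taken one by one, 1 among strains, 12 among strains in control limbs and 13 in immobilized limbs, and 30 and 27 combinations of gene and strain against the other 7 (2 in control and 15 in immobilized limbs over the 32 genes without it). DESeq2 called 1 gene among strains in control limbs, 14 in immobilized limbs and 24 immobilized combinations. With both limbs in 1 fit, 1 gene was called among strains in control limbs and 5 immobilized combinations. With no filter on low counts the combinations were 0 in control limbs and 7 in immobilized limbs, and with no scaling beyond total counts 8 genes were called among strains in immobilized limbs.

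Leaving out 1 mouse or library at a time gave 0 to 4 called genes for the limb over the mean of strains, 0 to 3 combinations for the limb by strain, 0 to 0 for differences of the limb effect among strains, 0 to 5 among strains in control limbs, 4 to 13 in immobilized limbs, and 0 to 10 and 6 to 23 combinations against the other 7 in control and immobilized limbs. At equal score, leaving out NZO/HlLtJ 4, A/J 1 or 1 WSB/EiJ mouse gave 3 to 4 of the 23 genes for the limb over the mean of strains and 0 to 1 among strains (0 without A/J 1, with 1 at an unadjusted p under 0.05 by edgeR). Counts among strains ran from 10 to 14 in control limbs and from 10 to 15 in immobilized limbs. The median limb difference ran from -0.307 to -0.0327. Of 450 alternative values for named combinations in immobilized limbs, 324 kept their call and direction and 126 lost the call, none of them reversing.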
